A study of Glycine max with 15 samples.

Results

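Among 54175 soybean gene IDs, 13 were both well expressed and nearly level across mock-treated seedlings and 4 treatments. Each treatment used an inhibitor of brassinosteroid synthesis, alone or with a brassinosteroid. The 13 genes were chosen by the measured values themselves. A gene had to have at least 30 control FPKM in each of 4 tables, where FPKM is a count of sequenced fragments scaled for transcript length and library size. Its L, the log2 ratio of treated to control FPKM after adding 1 to both, had to lie between -0.25 and 0.25 in every table. In all, 3090 IDs reached the level, and 13 of them (0.421%) also met the limit on L, so the maximum size of 200 set for the group was not reached. Because these values chose the genes, their levels and fold changes are a description and no test of stability was made on them.

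The libraries were made from whole seedlings of the cultivar Williams 82, 10 days old and at the first vegetative stage, in 5 groups of 3 libraries. Control seedlings were mock treated. All other seedlings were watered with 5 mM propiconazole (Pcz), an inhibitor of brassinosteroid synthesis. One such group had the inhibitor alone, another had it together with 10 nM brassinolide (BL), the most active brassinosteroid, and the last 2 groups were later given 1 mM BL as well, for 1 h or for 8 h. Doses are in the units of the labels, which were not checked against another source. No group had the inhibitor followed by a mock addition, so BL and the act of adding it cannot be told apart. The labels do not state whether libraries of 1 group are separate plants or pots, and the authors' p-values then measure a spread that may be technical. In whole seedlings, a change in RNA per cell and a change in the share of a cell type cannot be told apart.

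Each of the 4 tables compares 1 treated group with control and gives 1 FPKM per group, pooled by the authors over its libraries. Depth per library is therefore unknown, and no spread between replicates can be shown. Sheet names serve here as table names. By the labels, Pcz holds the inhibitor alone and Pcz-BL the inhibitor with low BL, while Pcz-BL-1h is high BL for 1 h, and Pcz-BL-8h is high BL for 8 h. In 3 of the 4 sheets the column header names another treatment (it reads Pcz-BL-1h on sheet Pcz-BL, Pcz-BL-8h on sheet Pcz-BL-1h, and Pcz-BL on sheet Pcz-BL-8h). Which treatment those tables hold is thus uncertain. The choice of the 13 genes does not depend on it, since the same limit was applied to every table. Values of a gene are given throughout in the order Pcz, Pcz-BL, Pcz-BL-1h, Pcz-BL-8h.

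Brassinosteroids are steroid hormones that are sensed by a receptor kinase at the cell surface and act through transcription factors on many genes of growth, cell walls and development. Genes whose transcripts stay level through such a treatment are used in plant work as references, against which other transcripts are scaled in quantitative PCR. Many genes used in that way serve basic functions such as the cytoskeleton, protein synthesis and protein turnover. Gene names are not paired with the 13 IDs in these files, and none of the 54175 IDs matched the reference gene table (0 matches among 59048 genes). No function is therefore given for any of the 13, no protein or promoter sequence is shown, and seedling marker genes or common reference genes were not analysed here.

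Few well-expressed genes met the limit in every table. The median standard errors of their fold changes, given below, were wider than the limit when the authors' test statistic was read as normal. On that reading measurement error alone could also place a gene outside the limit, which was not tested. The authors' p-values would give narrower errors, which were not computed. Of the 3090 well-expressed genes, 564 (18.3%) lay within the limit in Pcz. For Pcz-BL this number was 500 (16.2%), for Pcz-BL-1h 559 (18.1%) and for Pcz-BL-8h 433 (14.0%). A majority of the well-expressed genes, 1620 or 52.4%, lay outside the limit in every table. A further 995 were within it in 1 table, 377 in 2 tables and 85 in 3. The largest absolute L of a well-expressed gene over the 4 tables had a median of 1.61 and a lower quartile of 1.04. It was above 1 in 2379 genes (77.0%). The 4 tables share the control libraries, so their values for a gene are not independent.

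Well-expressed genes as a class were lower than control in the deposited scale. The median L of the 3090 genes was -0.75, -0.72, -0.80 and -0.30, against medians of 0.0041, -0.10, -0.045 and -0.076 over all genes tested by the authors. Of the 3090, 1345 (43.5%) had L below 0 in all 4 tables and 80 (2.59%) had L above 0 in all 4. The 13 genes had median L of -0.0086, -0.0027, 0.037 and -0.010. Relative to the median of the 3090 genes their L ran from 0.090 to 1.00. That all of these are above 0 is fixed by the rule, since each of the 4 medians lies below -0.25. The word stable therefore applies here to the deposited scale. The requirement on control FPKM alone itself favours genes that are lower after treatment. With the level set on the mean of the 5 groups, the medians over 3465 genes were -0.35, -0.49, -0.35 and 0.18.

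**Figure D1:**
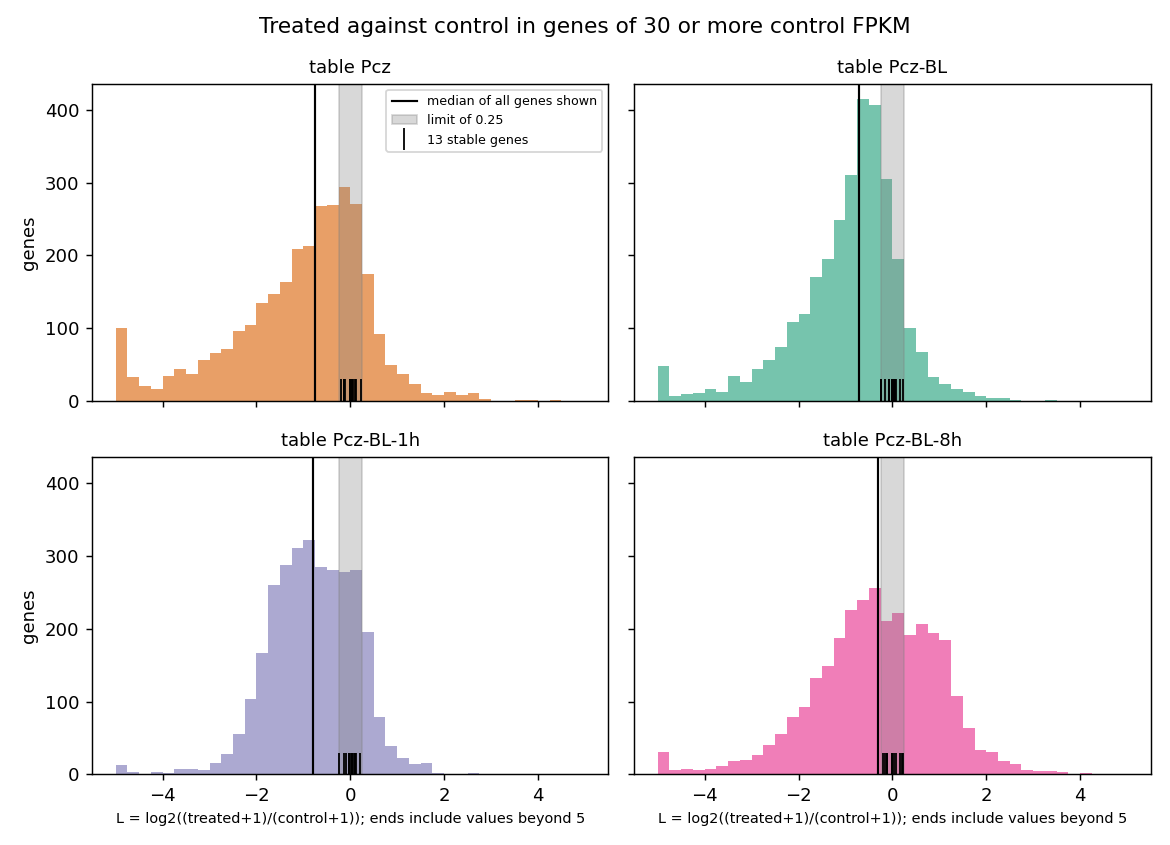
Histograms of L, a log2 ratio of treated to control FPKM with 1 added to both, for the 3090 genes of at least 30 control FPKM, 1 panel per table, with genes on the vertical axis and values beyond 5 placed in the end bins. The black line is the median, from -0.80 in Pcz-BL-1h to -0.30 in Pcz-BL-8h, the grey band is the limit of 0.25, and the short marks are the 13 stable genes, which by the rule all lie in the band.

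The gene with the smallest deviation was Glyma02g35990 (chromosome 2, 41377639 to 41380993). Its control values were 52.4, 54.1, 54.2 and 44.8 FPKM, and its treated values were 53.8, 57.4, 55.7 and 45.8 FPKM. L was 0.038, 0.085, 0.039 and 0.030. All 4 treated values were a little above their control, and none by more than 0.085. Glyma09g38530 (chromosome 9, 43883725 to 43888390) was the other gene with treated values above control in all 4 tables. Control stood at 51.8, 50.4, 50.5 and 41.7 FPKM and treated at 54.1, 56.1, 54.5 and 44.4 FPKM, giving L of 0.061, 0.15, 0.11 and 0.086. Both genes had their highest L in Pcz-BL, by sheet name the inhibitor with low BL.

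Glyma13g34600 (chromosome 13, 36134461 to 36138756) was the most abundant of the 13 and the only one below control in all 4 tables. Its control values were 126, 141, 141 and 117 FPKM, with treated values of 114, 119, 133 and 107 FPKM. L was -0.14, -0.24, -0.088 and -0.12. It was also the single gene of the group with at least 100 FPKM in every control column.

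The other 10 genes had treated values on both sides of control. In 3 genes the inhibitor alone gave the largest deviation. Glyma18g47780 (chromosome 18, 57349749 to 57354557) had control values of 102, 103, 103 and 85.5 FPKM and treated values of 109, 107, 102 and 84.9 FPKM, with L of 0.099, 0.053, -0.024 and -0.010. It had the next smallest deviation after Glyma02g35990, at a higher level. Glyma18g16160 (chromosome 18, 16490331 to 16496475) had control values of 70.7, 82.5, 82.7 and 68.5 FPKM and treated values of 61.7, 77.9, 90.3 and 63.4 FPKM. Its L was -0.19, -0.081, 0.13 and -0.11, so it stood above control only in Pcz-BL-1h. Glyma05g01770 (chromosome 5, 1233066 to 1237025) went from 70.7 FPKM in control to 82.5 FPKM in Pcz, an L of 0.22. In the other 3 tables its control was 64.1, 64.3 and 52.8 FPKM and its treated value 61.2, 66.0 and 48.5 FPKM, with L of -0.065, 0.037 and -0.12.

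For one gene of mixed direction the widest gap lay in Pcz-BL. Glyma16g29450 (chromosome 16, 33263381 to 33267806) had control values of 38.8, 37.9, 38.0 and 31.4 FPKM and treated values of 38.6, 44.4, 40.9 and 29.0 FPKM. L was -0.0086, 0.22, 0.10 and -0.11, above control in Pcz-BL and Pcz-BL-1h and below it in Pcz-BL-8h. Pcz-BL-1h held the widest gap of 2 genes, in opposite directions. Glyma06g09923 (chromosome 6, 7463093 to 7464170), the shortest locus of the group, had control values of 36.2, 36.9, 37.0 and 30.6 FPKM and treated values of 33.5, 36.6, 42.7 and 30.6 FPKM. Its L was -0.11, -0.011, 0.20 and -0.0024. Glyma13g16540 (chromosome 13, 20475145 to 20481441) had control values of 36.0, 37.1, 37.2 and 30.9 FPKM and treated values of 35.7, 31.3, 31.3 and 34.5 FPKM. With L of -0.014, -0.24, -0.25 and 0.16 it was the gene nearest to the limit, below control in Pcz-BL and Pcz-BL-1h and above it in Pcz-BL-8h.

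In Pcz-BL-8h 4 genes of mixed direction had their widest gap, 2 above control and 2 below. Glyma08g17870 (chromosome 8, 13339049 to 13343365) had control values of 43.1, 37.2, 37.3 and 30.8 FPKM and treated values of 44.3, 38.0, 36.7 and 35.8 FPKM, with L of 0.040, 0.030, -0.024 and 0.21. Glyma06g21290 (chromosome 6, 17838543 to 17841259) stood at 114, 110, 110 and 91.3 FPKM in control and at 104, 99.1, 111 and 106 FPKM after treatment. Its L was -0.13, -0.15, 0.012 and 0.22, so by sheet name it lay below control without high BL and above it with high BL. Glyma10g28530 (chromosome 10, 37420802 to 37425403) took the reverse course. Its control was 61.6, 61.3, 61.5 and 51.0 FPKM and its treated value 66.6, 63.2, 55.9 and 43.9 FPKM, with L of 0.11, 0.045, -0.14 and -0.21. Glyma08g44580 (chromosome 8, 44155548 to 44160212), the least abundant of the 13 by mean control level, had control values of 31.7, 37.3, 37.5 and 30.9 FPKM and treated values of 29.0, 37.3, 39.3 and 27.7 FPKM. L was -0.13, -0.0027, 0.068 and -0.15, the third smallest deviation.

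**Figure D2:**
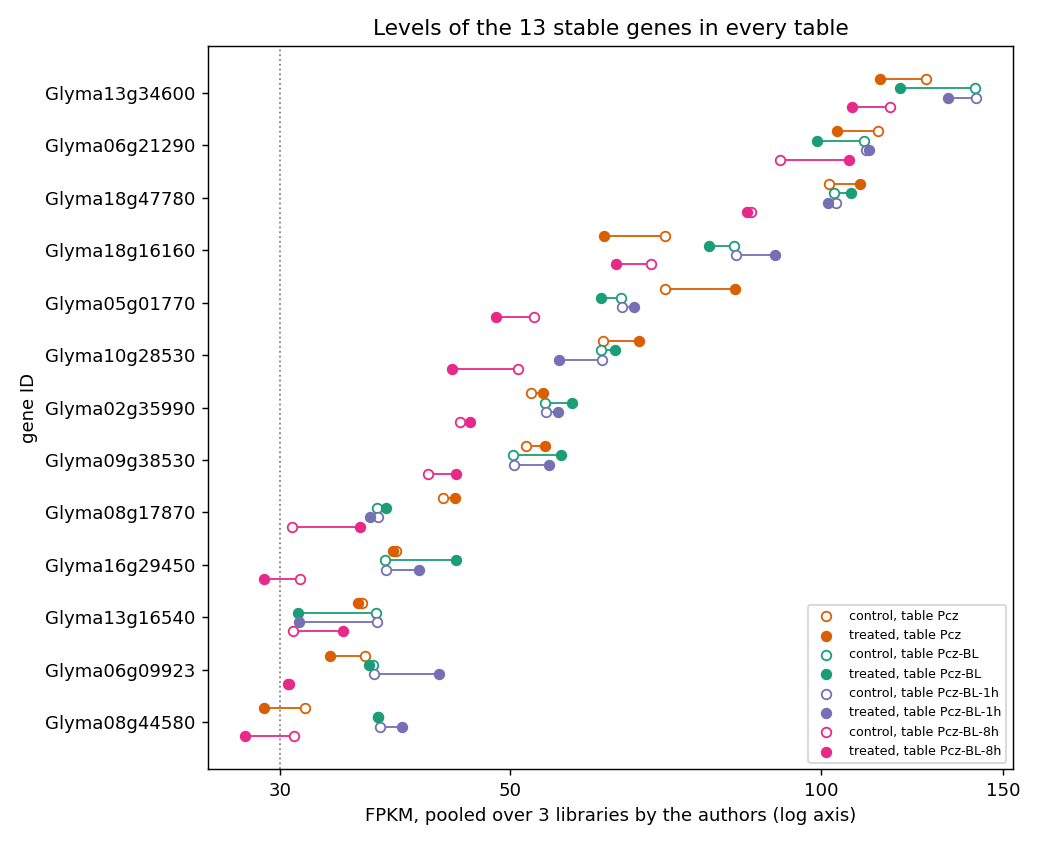
Control (open) and treated (filled) FPKM of the 13 genes on a log axis, 1 line per table and 1 row per gene ID, ordered by mean control level. Each point is 1 value pooled by the authors over 3 libraries, the dotted line is the level of 30 FPKM, and the open points of table Pcz-BL-8h lie to the left of the other control points of the same gene.

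Over the 13 genes and 4 tables, 25 treated values were above control and 27 below. With 2 genes above in all tables, 1 below in all and 10 mixed, no direction was shared by the group. The mean control level ran from 34.4 to 131 FPKM with a median of 51.4 FPKM, against a median of 65.0 and a maximum of 12683 FPKM over the 3090 genes. Only 2 of the 13 had a mean control level of at least 100 FPKM, a level reached by 913 of the 3090 (29.5%).

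The share of stable genes was lower among the most abundant transcripts. With the ratio taken without the added 1, 1.41% of 6950 genes between 10 and 30 control FPKM lay within 0.25 in all 4 tables. This share was 0.576% of 2780 genes between 30 and 100 FPKM, and 0.317% (2 of 630) between 100 and 300 FPKM. No gene qualified among 173 between 300 and 1000 FPKM or among 110 above that. Below 10 FPKM the share was 1.04% between 3 and 10 FPKM and 0.366% between 1 and 3 FPKM. Genes were binned here by the mean of the 4 control columns, with bin edges chosen after the files were examined. Binning by control alone itself favours genes that are lower after treatment, and the falling share was not separated from this effect. In Pcz the median L was -0.48 between 30 and 100 FPKM and -3.42 above 1000 FPKM. For Pcz-BL-8h these medians were -0.16 and -0.72. The added 1 raised the share of genes between 1 and 3 FPKM to 1.72%, since it draws the ratio of low values towards 0.

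**Figure D3:**
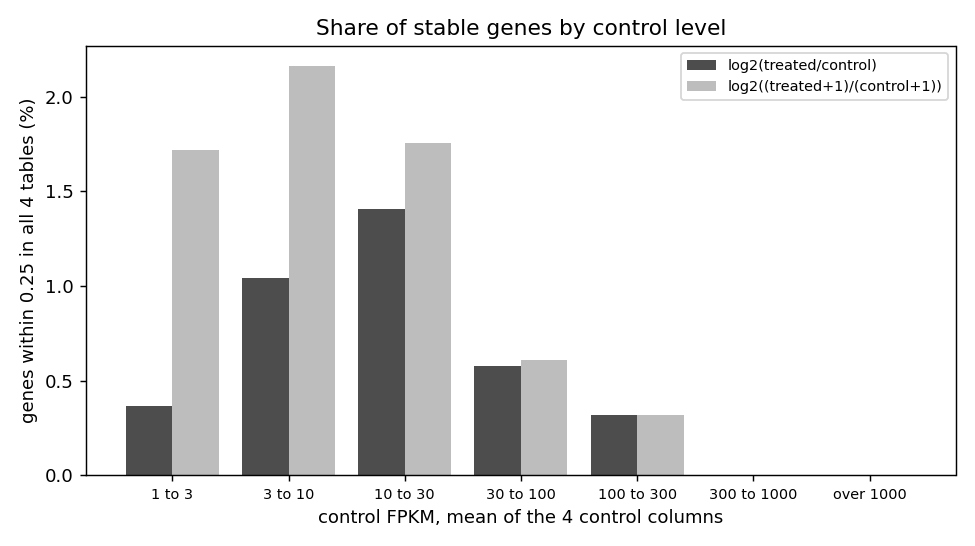
Share in percent of genes that lay within 0.25 of control on the log2 scale in all 4 tables, by mean control FPKM, for the ratio without (dark) and with (light) 1 added to both values. Dark bars are highest between 10 and 30 FPKM at 1.41%, and both bars are at 0 from 300 FPKM upwards.

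In the authors' Cuffdiff test, called at a q of 0.05 or less, 0 of the 13 genes differed from control in any table, and 0 had an unadjusted p under 0.05. Over all tested genes the test called 53.4% with the inhibitor alone and, in the order of the other tables, 36.2%, 52.1% and 56.5%. Among tested genes of at least 30 control FPKM it called 68.5%, 60.0%, 70.9% and 67.6%. The 13 genes also had 0 calls at a q of 0.01 or less, where 42.3%, 26.5%, 41.8% and 44.9% of all tested genes were called. When the p was instead computed by setting the test statistic against a normal distribution and adjusted, 0 of the 13 were called, against 34.3%, 15.7%, 29.7% and 31.1% of tested genes. Because the limit on L excludes large changes, the count of 0 follows in part from the choice of the genes and nothing is read from it. The lowest q of the group in the authors' deposited tables was 0.228, for Glyma13g16540 in Pcz-BL-1h (p = 0.154). The next 2 genes by size of the test statistic were Glyma05g01770 in Pcz (q = 0.349 in the authors' deposited table) and Glyma06g09923 in Pcz-BL-1h (q = 0.328 in the authors' deposited table). Of the 3090 well-expressed genes, 142 were called in no table. They included the 13 genes and 129 others that lay outside the limit, of which 119 were tested in all 4 tables. Over the 132 genes with no call and a test in all 4 tables, the largest absolute L had a median of 0.41 and reached 6.77, so a missing call is a wider class than a level within 0.25. The authors' short lists hold 3448, 2478, 2915 and 3981 genes beyond 4-fold, so the limit on L by itself kept all 13 genes out of them.

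The error of each fold change, as derived from the authors' test statistic, was wider than the limit that chose the genes. A standard error was taken as the absolute ratio of the log2 fold change, without the added 1, to the authors' test statistic. For the 13 genes it ran from 0.260 to 0.460 over the 4 tables. Its median per table was 0.320, 0.404, 0.307 and 0.414. The same medians over the 3090 genes were 0.333, 0.427, 0.312 and 0.429, so the group was about as precisely measured as other genes of its level. From these errors, 0 of the 52 intervals at 95% lay wholly within 0.25 of control on the log2 scale. Within a 2-fold change on either side lay 46 of the 52. The other 6 were split between Pcz-BL and Pcz-BL-8h, with 3 each.

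All 4 intervals stayed within a 2-fold change in 7 genes, which were Glyma02g35990, Glyma18g47780, Glyma08g44580, Glyma09g38530, Glyma18g16160, Glyma06g09923 and Glyma05g01770. For Glyma02g35990 the intervals of the log2 fold change were -0.48 to 0.55, -0.69 to 0.86, -0.55 to 0.63 and -0.77 to 0.83. For Glyma13g34600 they were -0.66 to 0.36, -1.06 to 0.58, -0.70 to 0.52 and -0.94 to 0.70. By these errors the 13 genes were bounded near a 2-fold range and not near the limit of 0.25, which corresponds to 1.19-fold. The intervals treat the test statistic as normal, and the authors' p-values are smaller than that reading gives. The lowest q of the group was 0.228 in the authors' Cuffdiff test and 0.592 by the normal distribution of the statistic. Intervals built from the authors' p-values would be narrower and were not made.

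**Figure D4:**
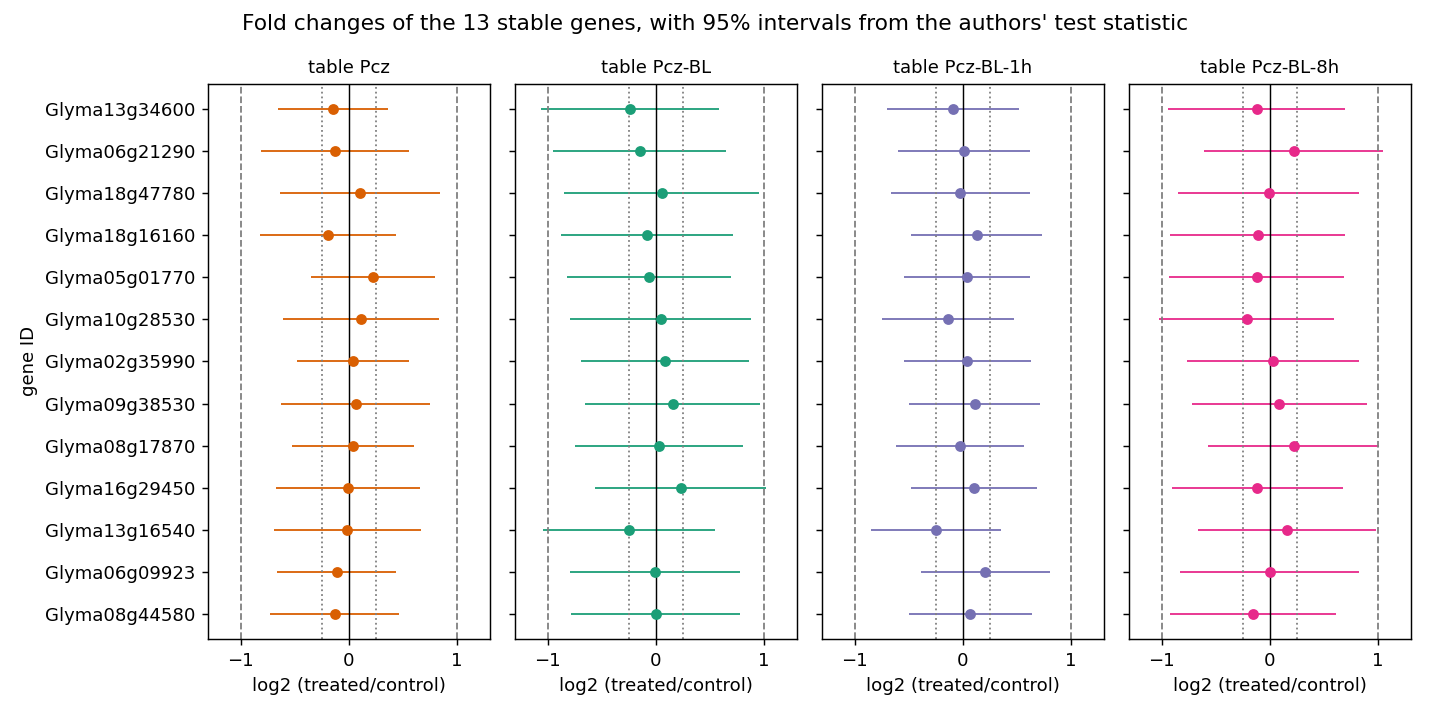
Log2 ratio of treated to control FPKM for the 13 genes (rows, ordered by mean control level) in each table (panels), with 95% intervals of 1.96 standard errors derived from the authors' test statistic. Dotted lines mark 0.25 and dashed lines a 2-fold change on either side; every interval crosses a dotted line, and 6 cross a dashed line.

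The control columns of the 4 tables describe the same control group and still differed by more than the limit. Between the highest and the lowest control value of a gene, the log2 ratio ran from 0.27 to 0.48 over the 13 genes, with a median of 0.28. It exceeded 0.25 in 13 of 13 genes, and in each it was larger than the gene's own largest absolute L. The median over the 3090 genes was 0.29. Pcz-BL-8h had the lowest control in every one of the 13, at a median of 0.829 times the Pcz-BL control, and this ratio was nearly the same in each gene (log2 -0.28 to -0.27). Controls of Pcz-BL and Pcz-BL-1h differed by at most 0.0050 on the log2 scale.

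The control of the Pcz table deviated gene by gene. Its log2 ratio to the Pcz-BL control lay beyond 0.1 in 5 of the 13 genes. Glyma08g17870 had 43.1 FPKM in the Pcz control and 37.2 in the Pcz-BL control, while Glyma08g44580 had 31.7 and 37.3. Glyma05g01770 was higher in the Pcz control and Glyma18g16160 and Glyma13g34600 were lower. Over the 13 genes, the log2 ratio of the Pcz-BL control to the Pcz control ran from -0.21 to 0.24. Each of these shifts was smaller than the limit on L, so the rule did not require the Pcz treated value to be shifted alike. How the authors' steps gave different values to the same control group is not given in the sources used here.

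**Figure D5:**
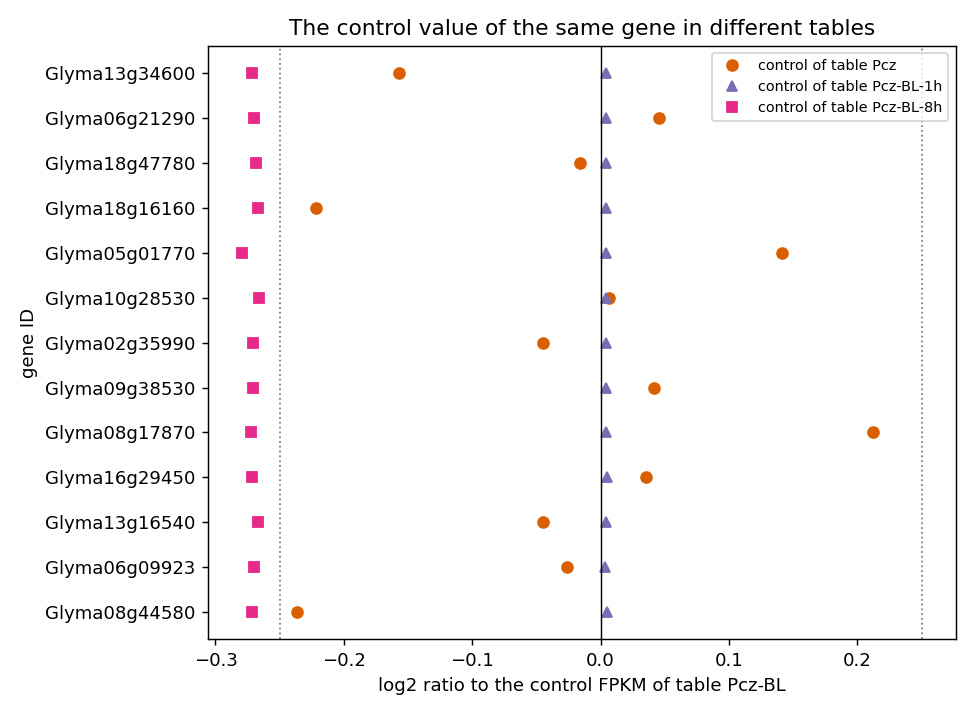
Log2 ratio of the control FPKM in tables Pcz (circles), Pcz-BL-1h (triangles) and Pcz-BL-8h (squares) to the control FPKM of table Pcz-BL, for the 13 genes in rows ordered by mean control level, with dotted lines at 0.25. The squares form a column between -0.28 and -0.27, the triangles lie at 0, and the circles spread from -0.24 to 0.21.

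The scale difference carries over when treated groups are set against each other. In the deposited values, 10 of the 13 genes were lowest in Pcz-BL-8h, and none was highest there. After each table was scaled to the mean control level of the gene, 4 were lowest and 3 were highest in Pcz-BL-8h. The ratio of the highest to the lowest of the 5 group levels had a median of 1.29 as deposited (1.12 to 1.70) and 1.25 scaled (1.06 to 1.33). Over the 3090 genes these medians were 3.63 and 3.77. The limit on L bounds the scaled ratio of the 13 genes, so this contrast follows from their choice. The widest deposited ratio, 1.70 for Glyma05g01770 between Pcz and Pcz-BL-8h, was 1.27 after scaling. The next widest were 1.53 for Glyma16g29450, 1.52 for Glyma10g28530, 1.46 for Glyma18g16160 and 1.42 for Glyma08g44580, and scaled these were 1.27, 1.26, 1.25 and 1.17.

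Between treated groups the rule sets no limit of its own, but the limits against control bound the scaled differences. For Pcz-BL-8h over Pcz, the median log2 ratio of the 13 genes was -0.23 as deposited and 0.024 as a difference of L. That of Pcz-BL-8h over Pcz-BL was -0.32 and -0.055, and that of Pcz-BL-8h over Pcz-BL-1h was -0.31 and -0.032. Without Pcz-BL-8h the deposited medians were near 0, at 0.051 for Pcz-BL over Pcz, 0.049 for Pcz-BL-1h over Pcz and 0.00048 for Pcz-BL-1h over Pcz-BL. For Pcz-BL and Pcz-BL-1h, whose controls were nearly equal, 13 of 13 genes had treated values within 0.25 of each other, a closeness that largely follows from the rule. Over the 3090 well-expressed genes that share was 19.5%. As differences of L, 12 of 13 were within 0.25 for Pcz-BL against Pcz and for Pcz-BL-8h against Pcz-BL-1h. The number was 11 for Pcz-BL-1h against Pcz, 10 for Pcz-BL-8h against Pcz and 9 for Pcz-BL-8h against Pcz-BL. In the same order, the shares over the 3090 genes were 26.0%, 17.1%, 18.7%, 10.3% and 11.5%. These contrasts also follow largely from the rule. Among the 13, the largest difference of L was 0.40, in Glyma13g16540, which went from below control in Pcz-BL and Pcz-BL-1h to above it in Pcz-BL-8h. No p is given for these ratios, since the tables differ in scale and hold pooled values.

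Each table removed different genes from the group. When Pcz-BL-8h was left out of the rule, 80 genes met it, and their L in that left-out table ran from -1.61 to 1.70 with a median of 0.42. Among the 67 that were not in the group, 50 stood above 0.25 in Pcz-BL-8h and 11 below -0.25. The remaining 6 met the limit on L everywhere and missed only the 30 FPKM level, in the Pcz-BL-8h control with its lower scale. Without Pcz, 36 genes met the rule, and the 23 that were not in the group split into 14 above the limit and 9 below it in Pcz. Without Pcz-BL-1h the number was 25, and of the 12 others 11 stood below -0.25 in that table. Without Pcz-BL it was 21, and 7 of the 8 others stood below -0.25. Leaving out high BL for 8 h, by sheet name, thus added most genes, mainly ones on the upper side in that table. The pools were unlike, since its lower-scaled control then no longer set the level. Without Pcz-BL-8h 3670 genes reached the level, against 3107 without Pcz and 3090 without Pcz-BL or without Pcz-BL-1h. The median L of those 3670 genes in Pcz-BL-8h was -0.27. All of these comparisons share the control libraries, and the counts are descriptions.

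The limit fell inside a continuous range. The 3 genes nearest to it from within were Glyma13g16540 (largest absolute L 0.245), Glyma13g34600 (0.239) and Glyma16g29450 (0.223). Just outside were Glyma20g22600 (0.254), which was above control in Pcz at 76.0 against 63.6 FPKM, Glyma06g33840 (0.254), above control in Pcz-BL-8h at 52.6 against 43.9 FPKM, and Glyma0169s00210 (0.266), below control in Pcz-BL-1h at 98.1 against 118 FPKM. None of them was called in the authors' deposited tables.

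The 13 genes were spread over 9 chromosomes, with pairs on chromosomes 6, 8, 13 and 18. Coordinates are as the tables give them, and the genome build is not given in the sources used here. Their loci spanned 1077 to 6296 bases with a median of 4425 bases, and 11 of the 13 were longer than 3209.5 bases, the median of the well-expressed genes. Over all gene IDs the median was 3228 bases. No other ID was listed on the same locus as any of the 13. Soybean carries many duplicated genes, and reads shared with a near-identical copy could be split between copies by the authors' counting, so the level of each gene is uncertain to that extent.

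Of the 26 IDs that lie next to one of the 13, 1 on either side, 20 were tested in at least 1 table and 18 of these were called in at least 1. Over all IDs, 32072 of 38849 with a test in at least 1 table (82.6%) were called at least once, so the count for the neighbours is near the background. Of the 26 neighbours, 1 was itself well expressed, where 5.70% of all IDs reached the level. This neighbour, Glyma06g09916, lies 233 bases from Glyma06g09923 and had a mean control level of 149 FPKM. Its L was 0.27, 0.20, 0.69 and 0.66, all above control, and it was called in none of the authors' deposited tables. Glyma08g44590, at 233 bases from Glyma08g44580 and 29.8 FPKM in control, had L of -0.27, -0.66, 0.76 and 1.55, against values between -0.15 and 0.068 in its neighbour.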

How the data were processed

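Messenger RNA of 15 libraries was sequenced with a stranded kit per the labels' protocols. The authors deposited 4 full tables over 54175 gene IDs with FPKM pooled per group, from Cuffdiff per the file headers. For its version, the aligner, the build and the annotation, nothing is given in the sources used here. The score in these tables is the authors' test statistic. The deposited p-value (smallest entry 5e-05) and q-value are the authors'. Short lists give log2 fold changes deposited by the authors.

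Ratios L used a pseudocount of 1. Members needed 30 control FPKM in 4 tables and an absolute L of at most 0.25, with a maximum of 200 genes; adding 1 understates changes of low genes. Fits on values per library, without a replicate block, were planned and could not be made on pooled values. Fold changes without a pseudocount were recomputed from FPKM, and intervals used 1.96 standard errors. The rule and the Benjamini-Hochberg step were tested on simulated data (Python 3.11.15, pandas 2.3.3, SciPy 1.17.1).

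The sheet name set the group of each table, as the labels cite those names. The members, gene lists and named genes were chosen with earlier results of these data known. Named genes were the members by smallest deviation, highest level, nearness to the limit, widest range over groups and largest test statistic, which together with the wish to give every member covered all 13; genes near the limit from outside were named too, and neighbours after their values were seen. Lists by gene family could not be applied, since 0 IDs matched the reference table (Glycine_max_v4.0).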

Additional observations from a re-analysis of the deposited data

How the results depend on the processing

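The number of stable genes was 13 and depended on the settings. It was 118 with a level of 10 FPKM, 1 (Glyma13g34600) with 100 FPKM, and 200 by the maximum size without a level, of 4365 that passed. With limits of 0.2, 0.3 and 0.5 it was 5, 24 and 119; the 5 were Glyma02g35990, Glyma18g47780, Glyma08g44580, Glyma09g38530 and Glyma18g16160. Without table Pcz, Pcz-BL, Pcz-BL-1h or Pcz-BL-8h it was 36, 21, 25 and 80. Of the 18 alternatives, the other 8 kept the number within 1.5 times, but not always the genes. With each table centred on the median of the 3090 well-expressed genes, 10 genes passed and 0 of the 13 were among them. Centred on all tested genes, an alternative chosen after the data were seen, 15 passed and 9 of the 13 remained. With the level set on the mean of 5 groups and centring, also added later, 15 passed and 0 of the 13 remained. The level on the mean of 5 groups alone gave 18 genes, all 13 included. Without the pseudocount Glyma13g16540 was lost, at 0.252. The 0 calls among the 13 stayed 0 at a q of 0.01 and by the normal distribution of the test statistic. Scaling to the same control level took most of the difference out of the 3 median log2 ratios with Pcz-BL-8h, from -0.23 to 0.024 over Pcz, with a change of sign, from -0.32 to -0.055 over Pcz-BL and from -0.31 to -0.032 over Pcz-BL-1h. The other 3 ratios went from 0.051 to -0.0098, from 0.049 to 0.048 and from 0.00048 to -0.0034. Depth is unknown, and pooled values limit every statement on spread. No paired analysis was possible because the files give 1 pooled value per group, and no library could be left out.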

Other observations

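After each table was centred on the median L of the 3090 well-expressed genes, 10 genes lay within 0.25 of 0 in all 4 tables. The authors' deposited tables called 10 of the 10 lower than control in each of the first 3 tables and 0 of them in Pcz-BL-8h. Of tested well-expressed genes, 68.5%, 60.0%, 70.9% and 67.6% were called in either direction in the 4 tables. This pattern follows largely from the choice of the genes, since the medians used for centring were -0.75, -0.72, -0.80 and -0.30. The gene with the smallest centred deviation was Glyma15g00260, with a mean control level of 50.4 FPKM and treated values of 35.0, 32.9, 29.5 and 38.1 FPKM. Glyma07g00850 had 81.5 FPKM in control and 46.8, 49.0, 56.3 and 53.2 FPKM after treatment. Both were named after their values were seen, and which of the 2 scales is nearer to RNA amounts per seedling was not tested.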
